A study of Mus musculus with 3 samples.

Results

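The expression of 34 genes that make, store, transport, oxidise or export cholesterol, or regulate its handling, was followed in murine bone marrow derived macrophages (BMDMs) treated with *Bb*LP. *Bb*LP are the purified lipoproteins of *Borrelia burgdorferi*, the spirochete that causes Lyme disease. Uptake receptors were not among the 34. The genes were chosen by symbol out of the 32285 genes of the count matrices and were placed in 5 roles, with 18 genes of synthesis, 5 regulators of synthesis, 5 genes of lysosomal release, storage and transport, 1 gene of oxidation and 5 genes of efflux and the liver X receptors (LXR). BMDMs were grown from the bone marrow of female C3H/HeN mice, aged 6 to 8 weeks per the labels and 6 weeks per the study's methods, for 8 days in medium with 15% L929-conditioned medium, a source of the macrophage growth factor M-CSF. The Ctrl cells then received PBS. The LP1 and LP4 cells received *Bb*LP at 1 µg/mL and were collected after 1 and 4 hours, respectively. Each condition was 1 library of droplet-captured single cells that pooled 3 wells. The methods describe bone marrow pooled before culture and, for the single-cell experiment, BMDMs of 3 mice treated independently, and the cells of a library cannot be assigned to a mouse here, so no difference below has a replicate and none was tested. The study's methods place the Ctrl harvest at 4 hours, so that treatment and time in the plate cannot be told apart between LP1 and Ctrl.

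Levels are CPM, the UMIs (unique molecules) of a gene summed over all kept cells of a library and scaled to a common library total. Brackets hold 95% intervals that cover counting error only. A gene was called higher or lower when its CPM differed by 1.5-fold between libraries, and this was asked of 8103 genes, those that reached 10 CPM in any library. The kept cells numbered 6071 in Ctrl, 5065 in LP1 and 4670 in LP4, with 35688939 to 61402275 UMIs per library and a median of 5133 to 11784 UMIs per cell. Between 4 and 10 cell barcodes were shared by any pair of libraries. All 9 macrophage markers were detected in each library and summed to 11829 CPM in Ctrl, 12380 CPM in LP1 and 12149 CPM in LP4. Most of this sum was *Lyz2*, at 9209.5, 9684.4 and 8716.5 CPM, so it says little about the other markers. These differed both ways, with *Csf1r* at 769, 522 and 421 CPM and *Cd14* at 291, 597 and 1399 CPM in the same order. Neutrophil markers summed to 276 to 522 CPM with the highest value in LP4, mostly from *S100a8* and *S100a9*, at 197 and 264 CPM there. *Ngp* and *Camp* were also highest in LP4, while *Ly6g*, *Retnlg*, *Ltf*, *Elane* and *Mpo* were lower there than in Ctrl. Neutrophil-like cells made up 0.53%, 0.49% and 0.60% of the kept cells of Ctrl, LP1 and LP4. Dendritic cell markers summed to 151 to 154 CPM and cycling markers to 537 to 649 CPM. Stromal markers summed to 4.29 to 19.7 CPM with the highest value in LP4, and lymphocyte markers to 0.616 to 0.8 CPM with 2 of 5 at 0. The calls below held 10 higher and 5 lower members in LP4 against Ctrl both in all kept cells and in the macrophage-like clusters alone.

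Cells build cholesterol from acetyl-CoA through the mevalonate pathway to squalene and then through a series of sterol intermediates. The genes of the pathway are switched on together by SREBP2, the product of *Srebf2*, which SCAP carries out of the endoplasmic reticulum when sterols are low and which the INSIG proteins hold back when sterols are high. Oxysterols such as 25-hydroxycholesterol, the product of CH25H, restrain SREBP2 processing and activate LXR, which in turn drives the efflux transporters ABCA1 and ABCG1. In macrophages *Ch25h* is known as an interferon-stimulated gene, and the supply of cholesterol is known to matter for inflammatory and antiviral responses.

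The roles differed in LP4. *Ch25h* was near the floor in Ctrl and at 161 CPM in LP4, 8 of the 18 synthesis genes were higher, the efflux transporters *Abca1* and *Abcg1* were lower, and *Mylip* had the lowest ratio of the members that reached 10 CPM. Of the 34 members 28 had at least 10 CPM in a library, and 10 of these 28 were higher and 5 lower in LP4 than in Ctrl, where 20.0% of all genes were higher and 23.1% lower. The median log2 ratio of all genes was -0.08, and it was 0.10 with TMM and 0.14 with median of ratios scaling factors, both of which give less weight to a few abundant genes. With TMM factors the same comparison gave 26.6% of all genes higher and 16.0% lower, with 11 members higher and 3 lower, and with median of ratios factors 28.0% higher and 14.7% lower, with 12 members higher and 1 lower. The calls of *Abca1* and *Abcg1* as lower were among those lost with either set of factors. Against LP1, 7 members were higher and 3 lower in LP4, beside 16.3% and 18.5% of all genes. In LP1 against Ctrl 1 member was higher (*Ch25h*) and 1 lower (*Soat1*), beside 4.23% and 2.83% of all genes. *Ch25h* met the minimum through LP4 alone. In Ctrl and LP1 it had 0.112 and 0.343 CPM, and the interval of its log2 ratio, 0.01 to 3.64, reaches below the threshold of the call. Ratios to Ctrl share the Ctrl library, so those of LP1 and LP4 are not independent.

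**Figure D1:**
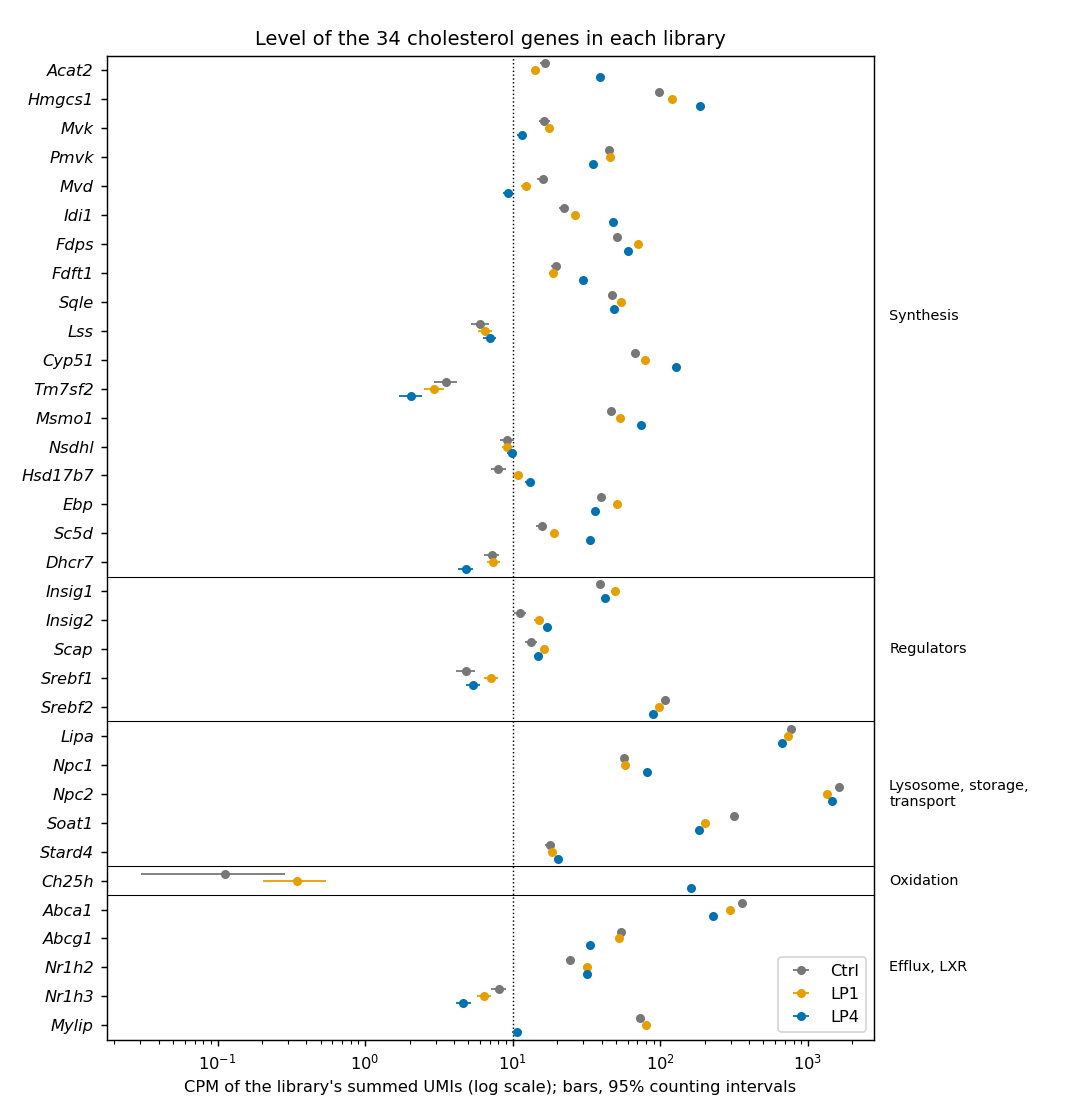
CPM of the 34 genes, grouped by role, in the Ctrl, LP1 and LP4 libraries on a log axis, with 95% counting intervals as bars and the minimum of 10 CPM as a dotted line. *Ch25h* lies at 0.112 CPM in Ctrl and 161 CPM in LP4, and *Mylip* at 73.2 and 10.7 CPM, while *Npc2* and *Lipa* have the most UMIs of the members in every library.

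The synthesis genes were read along the pathway. Summed over the 14 that reached 10 CPM in a library, they stood at 509 CPM in Ctrl, 593 CPM in LP1 and 752 CPM in LP4, a log2 ratio of 0.56 (0.54 to 0.59) between LP4 and Ctrl. *Hmgcs1* and *Cyp51* weighed most in this sum, with 97.7 and 67.8 CPM in Ctrl and 187 and 129 CPM in LP4. In LP4, 8 of the 14 were higher than in Ctrl by 1.5-fold and 1 was lower, beside 20.0% and 23.1% of all genes. The median log2 ratio of the 14 was 0.65, and 0.23 over all 18 synthesis genes. The 4 genes under the minimum (*Lss*, *Tm7sf2*, *Nsdhl* and *Dhcr7*) had lower ratios. *Hsd17b7* reached the minimum in LP1 and LP4 only, and *Mvd* in Ctrl and LP1 only. In LP1 no synthesis gene differed from Ctrl by 1.5-fold, with 11 of the 14 ratios above 1 and a median log2 ratio of 0.22, or 0.16 over all 18.

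The steps of the mevalonate branch differed from each other. *Acat2*, the cytosolic thiolase that joins acetyl-CoA units at the entry of the pathway (chromosome 17, 12942890 to 12960747, minus strand, GRCm38), had 590, 747 and 2403 UMIs in Ctrl, LP1 and LP4. These were 16.5 CPM in Ctrl, 14.2 CPM in LP1 and 39.1 CPM in LP4. It was thus higher in LP4 than in both other libraries, with a log2 ratio of 1.24 (1.11 to 1.38) against Ctrl and 1.46 (1.34 to 1.58) against LP1. *Hmgcs1*, the HMG-CoA synthase of the next step, had 97.7, 119 and 187 CPM in the same order, a log2 ratio of 0.93 (0.88 to 0.99) between LP4 and Ctrl. *Idi1*, which isomerises the isoprenoid unit (chromosome 13, 8885501 to 8892451, plus strand), had 791, 1384 and 2922 UMIs. These were 22.2 CPM in Ctrl, 26.4 CPM in LP1 and 47.6 CPM in LP4, so that LP1 was above Ctrl and LP4 above LP1. Its log2 ratio was 1.10 (0.99 to 1.22) between LP4 and Ctrl and 0.25 (0.12 to 0.38) between LP1 and Ctrl.

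The kinases and the decarboxylase between these genes had ratios below 1 in LP4. *Mvd*, the decarboxylase of mevalonate diphosphate, was at 15.9 CPM in Ctrl, 12.3 CPM in LP1 and 9.32 CPM in LP4, a log2 ratio of -0.78 (-0.95 to -0.61) that was lower by 1.5-fold, and -0.57, short of it, with median of ratios factors. *Mvk*, mevalonate kinase, was at 16.4, 17.7 and 11.5 CPM and its log2 ratio of -0.51 stayed within 1.5-fold of Ctrl, although against LP1 it was lower by 1.5-fold at -0.62 (-0.76 to -0.48). That call was lost with TMM factors, at -0.52, and with median of ratios factors, at -0.49. *Pmvk*, phosphomevalonate kinase, was at 45.2, 45.8 and 34.9 CPM, a log2 ratio of -0.37. *Fdps*, which makes farnesyl diphosphate, had 51.0 CPM in Ctrl, 70.5 CPM in LP1 and 60.5 CPM in LP4, and so was highest in LP1.

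Of the genes from squalene onward, 5 of the 7 that reached the minimum were higher in LP4 and none was lower. Of all genes, 20.0% were higher and 23.1% lower. *Sc5d*, the sterol C5-desaturase (chromosome 9, 42251595 to 42264256, minus strand), had 561, 1006 and 2044 UMIs, or 15.7 CPM in Ctrl, 19.2 CPM in LP1 and 33.3 CPM in LP4. Its log2 ratio was 1.08 (0.95 to 1.22) between LP4 and Ctrl and 0.29 (0.14 to 0.44) between LP1 and Ctrl. *Cyp51*, the lanosterol demethylase, had 67.8, 78.9 and 129 CPM and a log2 ratio of 0.92 (0.86 to 0.99). *Hsd17b7*, *Msmo1* and *Fdft1*, whose products act at C3 ketone reduction, C4 demethylation and squalene formation, had log2 ratios of 0.71, 0.67 and 0.63. Their intervals, 0.51 to 0.91, 0.58 to 0.75 and 0.50 to 0.76, reach below the threshold of the call. *Sqle*, squalene epoxidase, often described as a rate-limiting step, was level at 47.1, 54.4 and 48.3 CPM. *Ebp*, the sterol isomerase, had 40.0 CPM in Ctrl, 51.1 CPM in LP1 and 36.0 CPM in LP4, a log2 ratio of -0.15 between LP4 and Ctrl that turned to 0.02 with TMM and 0.05 with median of ratios factors. Under the minimum, *Lss* and *Nsdhl* had log2 ratios of 0.21 and 0.12, with intervals that hold 0, and *Tm7sf2* and *Dhcr7* of -0.78 and -0.58.

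**Figure D2:**
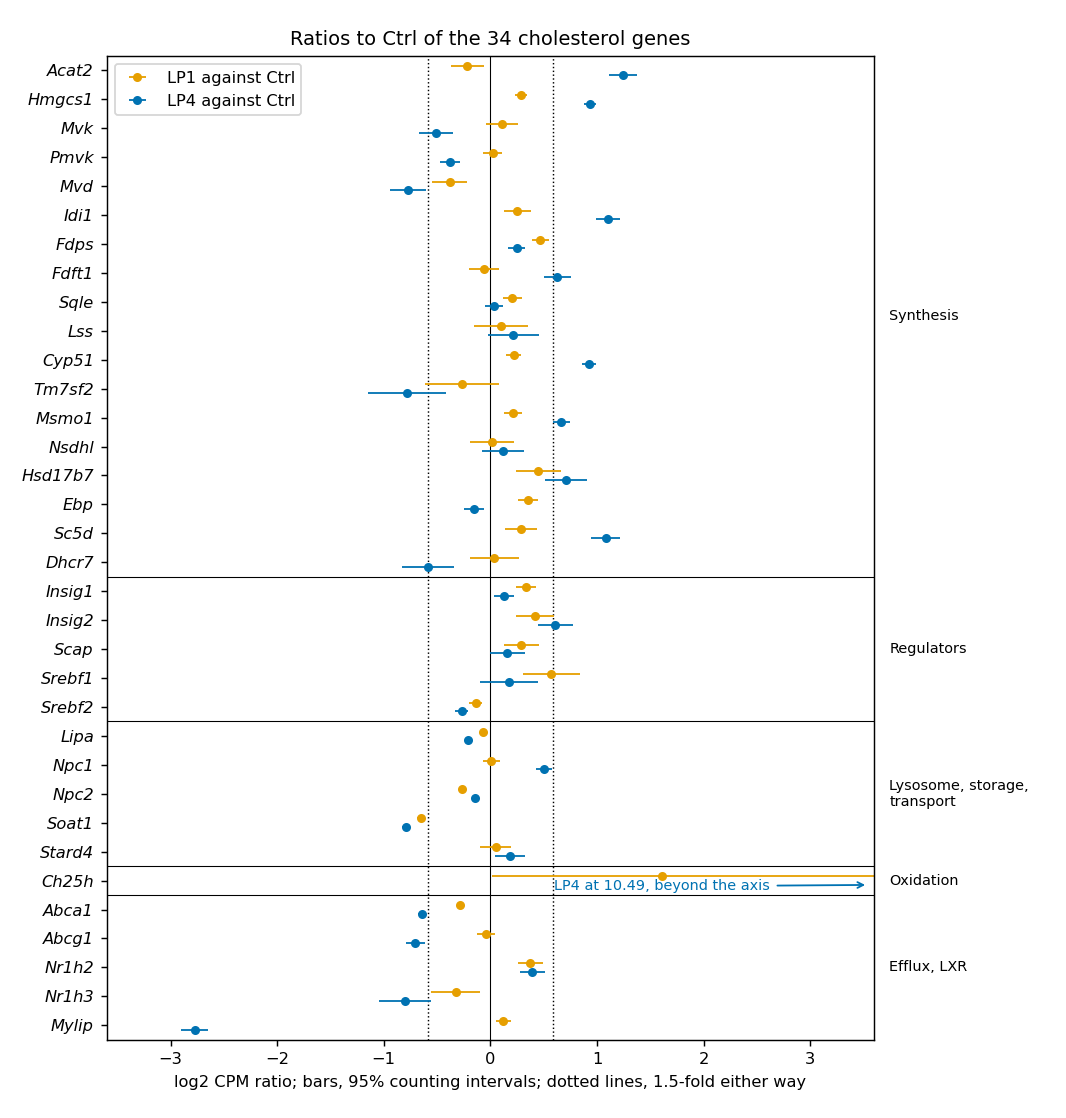
Log2 CPM ratio of each of the 34 genes to Ctrl in LP1 (orange) and LP4 (blue), with 95% counting intervals as bars and dotted lines at 1.5-fold either way. In LP4 *Acat2*, *Idi1* and *Sc5d* lie above 1 while *Mvd* and the efflux genes *Abca1* and *Abcg1* lie below the lower line, and the LP4 value of *Ch25h*, 10.49, lies beyond the axis.

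Promoter letters were set beside these ratios because the synthesis genes are known to share binding sites for SREBP2 and its partner NF-Y. RefSeq promoters (GRCm38.p6, 250 bases before to 50 after each start) matched 28 members with 37 windows, and none was at hand for *Fdps*, *Fdft1*, *Sqle*, *Stard4*, *Abcg1* and *Npc1*. The sterol response core TCACNCCAC, searched on both strands, was found in 1 member, *Hmgcs1*, and in 1.24% of all 32851 promoter windows. The NF-Y box CCAAT was found in 14 of the 18 windows of synthesis genes (77.8%) and in 37.4% of all windows. By gene, 14 of 15 synthesis genes held it. It was present in 6 of the 7 synthesis genes that were higher in LP4 and in all 8 of the others, and *Acat2*, with the largest ratio of the synthesis genes, was the 1 without it. The interferon-type motif GAAANNGAA was found in *Ebp* alone among the members (8.56% of all windows), and the κB-type motif GGGANTTCC in none (1.68% of all windows), *Ch25h* included. A match of letters is not a bound site, and its absence says only that the letters are not in the window.

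The next lines show the sterol response core and an NF-Y box of *Hmgcs1*, then an NF-Y box of *Sc5d*, which was higher in LP4, of *Mvd* and *Mvk*, which had ratios below 1 there, and of *Mylip*, which had the lowest ratio of the members. Each is read 5′ to 3′ along the gene, capitals mark the motif, with ATTGG as the box on the opposite strand, and the distance given is that of the motif's first base from the RefSeq start.
Hmgcs1, chr13:119690194-119690242, plus strand, 137 bases before the start: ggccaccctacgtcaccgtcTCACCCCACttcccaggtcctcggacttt
Hmgcs1, chr13:119690286-119690330, plus strand, 45 bases before the start: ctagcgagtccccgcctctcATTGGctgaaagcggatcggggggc
Sc5d, chr9:42264301-42264344, minus strand, 24 bases before the start: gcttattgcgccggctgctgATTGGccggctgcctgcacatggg
Mvd, chr8:122443425-122443469, minus strand, 27 bases before the start: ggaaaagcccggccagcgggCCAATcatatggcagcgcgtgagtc
Mvk, chr5:114444199-114444243, plus strand, 50 bases before the start: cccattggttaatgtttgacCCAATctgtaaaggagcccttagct
Mylip, chr13:45389655-45389699, plus strand, 67 bases before the start: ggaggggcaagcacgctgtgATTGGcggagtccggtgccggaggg

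Of the regulators 4 of 5 reached the minimum, with a median log2 ratio of 0.14 in LP4. *Srebf2* itself was at 108 CPM in Ctrl, 98.0 CPM in LP1 and 89.5 CPM in LP4, a log2 ratio of -0.27 (-0.33 to -0.21) between LP4 and Ctrl, within 1.5-fold. With TMM or median of ratios factors this ratio was smaller in size. *Insig2* was higher by 1.5-fold, with 11.2, 15.0 and 17.1 CPM and a log2 ratio of 0.61 (0.44 to 0.78), an interval that reaches below the threshold of the call. *Insig1*, itself a known SREBP target, had 38.9, 49.0 and 42.4 CPM and was thus highest in LP1. *Scap* had 13.3, 16.3 and 14.9 CPM. *Srebf1* stayed under the minimum at 4.82, 7.15 and 5.42 CPM. Of the 14 listed genes of fatty acid synthesis, which SREBP1 is known to drive, 10 reached 10 CPM, and of these 5 were lower and none higher in LP4 than in Ctrl, beside 23.1% and 20.0% of all genes. Their median log2 ratio was -0.55. Over all 14 it was -0.30, since the 4 under the minimum (*Me1*, *Elovl6*, *Scd1* and *Gpam*) had ratios above 1, with 1.13 (0.86 to 1.41) for *Me1*, malic enzyme. With TMM or median of ratios factors 1 of the 10, *Scd2*, was lower, beside 16.0% and 14.7% of all genes. On the main scale *Scd2*, a fatty acid desaturase, had a log2 ratio of -0.90, *Slc25a1*, the citrate carrier, of -0.69, and *Acly*, ATP citrate lyase, of 0.37.

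*Npc2* and *Lipa*, of the genes that release cholesterol in the lysosome, had the most UMIs of the members in each library, counts that are not scaled to gene length. *Npc2*, which hands cholesterol to the lysosomal membrane, was at 1618 CPM in Ctrl, 1350 CPM in LP1 and 1461 CPM in LP4, a log2 ratio of -0.15 between LP4 and Ctrl that turned to 0.02 with TMM and 0.06 with median of ratios factors. *Lipa*, lysosomal acid lipase, was at 773, 738 and 667 CPM, and its ratio in LP1, -0.07, turned to 0.00 and 0.01 with these factors. Its ratio in LP4, -0.21, was smaller in size with them. *Npc1*, the membrane exporter that takes cholesterol from NPC2, was at 57.0 CPM in Ctrl, 57.4 CPM in LP1 and 80.9 CPM in LP4, a log2 ratio of 0.51 (0.43 to 0.58) that lay under 1.5-fold, and at 0.67 with TMM and 0.71 with median of ratios factors it lay above it. *Soat1*, which esterifies cholesterol for storage in lipid droplets, was the only member lower in LP1 than in Ctrl by 1.5-fold. It stood at 317 CPM in Ctrl, 201 CPM in LP1 and 183 CPM in LP4, log2 ratios to Ctrl of -0.65 (-0.69 to -0.62) and -0.79 (-0.83 to -0.75), so that LP1 and LP4 lay close together and both below Ctrl. With median of ratios factors both values, at -0.58, lay just short of 1.5-fold, as did the LP1 value with TMM factors, at -0.58. *Stard4*, a sterol carrier, was level at 17.9, 18.5 and 20.3 CPM.

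*Mylip* encodes IDOL, a ubiquitin ligase that LXR induces and that marks lipoprotein receptors for degradation. The gene (chromosome 13, 45389742 to 45412022, plus strand) had 2611, 4170 and 657 UMIs, or 73.2 CPM in Ctrl, 79.5 CPM in LP1 and 10.7 CPM in LP4. Ctrl and LP1 were close to each other and LP4 far below both, with log2 ratios of -2.77 (-2.90 to -2.65) against Ctrl and -2.89 (-3.01 to -2.77) against LP1. *Mylip* lay at percentile 0.716 of the ratios of all genes tested. In cells thinned to 2000 UMIs, the share with a *Mylip* UMI was 13.3% (12.4% to 14.2%) in Ctrl, 13.9% (13.0% to 14.9%) in LP1 and 1.95% (1.57% to 2.39%) in LP4.

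The transporters, also LXR targets, were lower by a smaller factor. *Abca1*, which loads cholesterol onto apolipoprotein A-I, had 358 CPM in Ctrl, 295 CPM in LP1 and 229 CPM in LP4. Its log2 ratio was -0.65 (-0.68 to -0.61) between LP4 and Ctrl. *Abcg1*, which exports to mature HDL, was level at 54.1 and 52.5 CPM in Ctrl and LP1 and stood at 33.2 CPM in LP4, a log2 ratio of -0.71 (-0.80 to -0.61). Both calls were lost with TMM factors, at -0.48 and -0.54, and with median of ratios factors, at -0.44 and -0.50. The receptors themselves differed, with *Nr1h2* (LXRβ) at 24.4, 31.6 and 32.1 CPM and *Nr1h3* (LXRα), under the minimum, at 8.07, 6.44 and 4.63 CPM, a log2 ratio of -0.80 (-1.04 to -0.56). *Nr1h3* and *Tm7sf2* each overlap another gene on the same strand, so their counts are uncertain.

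*Ch25h*, the cholesterol 25-hydroxylase (chromosome 19, 34473778 to 34475164, minus strand), was the least abundant member in Ctrl. It reached the minimum in LP4 only. It had 4 UMIs in Ctrl (0.112 CPM), 18 in LP1 (0.343 CPM) and 9881 in LP4 (161 CPM). The log2 ratio of LP4 was 10.49 (9.13 to 12.36) to Ctrl and 8.87 (8.21 to 9.63) to LP1, and that of LP1 to Ctrl, 1.61 (0.01 to 3.64), rested on these 4 and 18 UMIs. *Lipa* lies 17153 bases away on the same strand and stood at a log2 ratio of -0.21 in LP4. Against Ctrl, LP4 had higher levels of all 7 interferon-stimulated genes measured beside *Ch25h*, from a log2 ratio of 2.36 for *Ifit3* to 5.67 for *Ifit1*, and in LP1 none of the 7 was higher by 1.5-fold.

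In LP4, *Ch25h* was carried by part of the cells. A UMI was found in 43.6% of LP4 cells, against 77.3% for *Hmgcs1* at a like level (187 CPM) and 79.5% for *Soat1* (183 CPM), and the 10% of cells richest in it held 54.1% of its UMIs, against 34.3% and 32.5% for those 2 genes. With each cell thinned to 2000 UMIs the share with *Ch25h* was 20.5% (19.4% to 21.7%) in LP4, from 4625 cells. It was 0.0594% in LP1, from 5052 cells, and 0.0336% in Ctrl, from 5949 cells. These low shares rest on very few cells with a UMI, as LP1 held 18 and Ctrl 4 *Ch25h* UMIs before thinning, and their difference was not read. Thinning left out 45, 13 and 122 shallower cells in the same order. None of the 28 neutrophil-like cells of LP4 had a UMI, thinned or not, which at 3 counts allows a share of up to 10.7%, and their median depth was 9262 UMIs against 11838 for the LP4 cells deep enough to be thinned.

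The spread of the 34 genes over cell states was described in clusters made without them, from genes that differed little between the libraries. Of the 9 clusters, 6 had at least 50 cells in each library and are named by letters. In each of the 6, between 6 and 8 macrophage markers were found in at least 50% of the cells. Clusters A to D were led by *Egr3* and *Ms4a6b*, *Hal* and *Fabp4*, *Ccnd1* and *Mcm3*, and *Mgll* and *Ctsk*, respectively, and E by the cell cycle genes *Hist1h1b* and *Aspm*. F, with 244 cells, was led by the stromal genes *Mgp* and *Col1a2*. At a finer setting, however, 96%, 96% and 91% of the Ctrl, LP1 and LP4 cells of F lay in a cluster named dendritic cell-like by its leading genes. A stromal-like finer cluster took 3, 3 and 7 of its cells. The sum of all 18 synthesis genes was above that of Ctrl in LP4 in 6 of 6, with log2 ratios of 0.35 (0.30 to 0.41) in D to 1.07 (1.01 to 1.13) in A.

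Cluster A drew on different finer clusters in the libraries, so its ratios may compare unlike cells. At a finer setting, 75.5% of its Ctrl cells and 77.8% of its LP1 cells lay in a first cluster that took 1.96% of its LP4 cells. A second finer cluster took 95.2% of its LP4 cells. The first held 1387 Ctrl, 1032 LP1 and 26 LP4 cells in all, and the second 453, 314 and 1352. Whether cells of the first come to lie in the second after treatment was not tested, and ratios within the second may then also compare unlike cells. Within that finer cluster the log2 ratio of the synthesis sum was 0.42 (0.33 to 0.51), and over the 7 finer clusters with 50 cells a library it ran from 0.31 to 0.46. *Abca1* had ratios below 1 in all 6 clusters, though with an interval that holds 0 in E. In the second finer cluster it was at 314 CPM in Ctrl and 350 CPM in LP4, a log2 ratio of 0.16 (0.03 to 0.29), with ratios below 1 in the other 6 of the 7. In the first finer cluster *Abca1* stood at 683 CPM in Ctrl, 600 CPM in LP1 and 338 CPM in LP4. *Mylip* was lower by 1.5-fold in all 7, with log2 ratios of -3.18 to -1.98, and *Idi1* higher in all 7, at 0.74 to 1.16. The next members shared the sign in all 7 but not the 1.5-fold. Ratios lay below 1 in all 7 for *Abcg1*, *Soat1*, *Mvd* and *Mvk*, the nearest to 0 of these being -0.15 for *Mvd*. The same held for *Ebp*, *Srebf2*, *Npc2*, *Lipa* and, under the minimum, *Nr1h3*. Their ratios came as near to 0 as -0.007, for *Npc2*, so a shared sign was also seen in members that hardly differed. Ratios lay above 1 in all 7 for *Acat2*, *Hmgcs1*, *Cyp51*, *Msmo1*, *Sc5d*, *Insig2*, *Npc1* and *Nr1h2*, the nearest to 0 being 0.21 for *Insig2*.

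**Figure D3:**
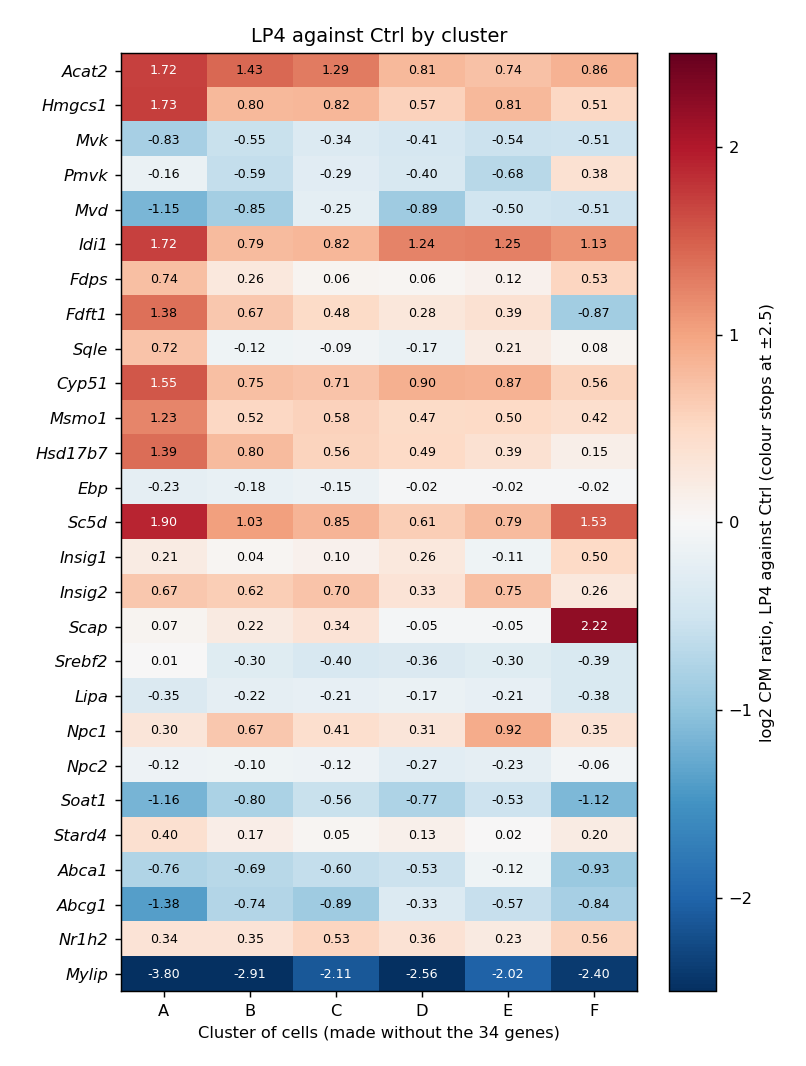
Log2 CPM ratio of LP4 to Ctrl for the 27 members other than *Ch25h* that reached 10 CPM, a column for each of clusters A to F, blue for lower and red for higher in LP4. *Mylip* is the darkest row, from -3.80 in A to -2.02 in E, and *Acat2*, *Idi1* and *Sc5d* are red throughout, while the value of *Scap* in F rests on 2 UMIs in Ctrl.

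Levels in Ctrl differed between clusters. In Ctrl, cluster D, led by *Mgll* and *Ctsk*, had the highest *Lipa* (1353 CPM, against 431 CPM in A), *Soat1* (465 CPM, against 237 CPM in C) and *Abcg1* (85.4 CPM, against 34.1 CPM in C) of the 6. *Abca1* was highest in A at 598 CPM and lowest in E and C at 189 and 191 CPM, values whose intervals overlapped. The 85 neutrophil-like cells, whose cluster was led by genes such as *Mpo*, *Ms4a3*, *Elane*, *S100a9* and *Ngp*, had the highest synthesis sum. It was 1348 CPM in Ctrl, 1710 CPM in LP1 and 1715 CPM in LP4, from 141 to 411 UMIs. The name rests on these genes alone.

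*Ch25h* in LP4 ranged over the clusters from 260 CPM (251 to 269) in C to 192 CPM in B, 135 CPM in E, 123 CPM in A, 110 CPM in F and 43.2 CPM (39.1 to 47.5) in D. The intervals of A, E and F overlapped. At 5000 UMIs per cell, a *Ch25h* UMI was found in 47.7% (44.4% to 51.0%) of LP4 cells of C and in 12.8% (10.1% to 15.9%) of those of D.

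The LP4 cells were then split by *Ch25h*, at 5000 UMIs per cell, into 1473 with and 2978 without a UMI. The synthesis sum was 720 CPM in the cells with and 778 CPM in the cells without it, a log2 ratio of -0.11 (-0.16 to -0.06). At 2000 UMIs per cell it was -0.04 (-0.12 to 0.05), an interval that holds 0. Within clusters A to D the ratio lay between -0.11 and 0.01 with intervals that hold 0, and in E it was -0.36 (-0.59 to -0.13), from 88 cells with *Ch25h*. *Abca1* had 226 CPM with and 269 CPM without it, a log2 ratio of -0.26 (-0.34 to -0.17), and *Abcg1* 25.5 and 33.9 CPM, a ratio of -0.41 (-0.66 to -0.16). At 2000 UMIs per cell these ratios were -0.05 (-0.20 to 0.10) and -0.35 (-0.81 to 0.08). Median depth before thinning was 12574 UMIs in the cells with and 11848 in the cells without *Ch25h*, and its part in these values was not tested. Cells with *Ch25h* were also spread unevenly over the clusters, which differ in both transporters in LP4 (*Abca1* from 354 CPM in A to 126 CPM in C). Within clusters the *Abca1* ratio was -0.21 (-0.35 to -0.07) in B and between -0.14 and -0.09 in A, C, D and E, with intervals that hold 0. For *Abcg1* it ran from -0.48 in C to 0.05 in B, and all 5 intervals hold 0. The 7 interferon-stimulated genes summed differed by 0.10 (0.08 to 0.11). Singly they ran from -0.08 (-0.13 to -0.03) for *Isg15* to 0.26 (0.23 to 0.28) for *Ifit1*. Within clusters their sum differed by 0.16 in A, 0.24 in B, 0.07 in C, -0.03 in D and 0.00 in E, the values in D and E with intervals that hold 0. Cells of 1 library are not replicates, and these values describe LP4 alone.

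**Figure D4:**
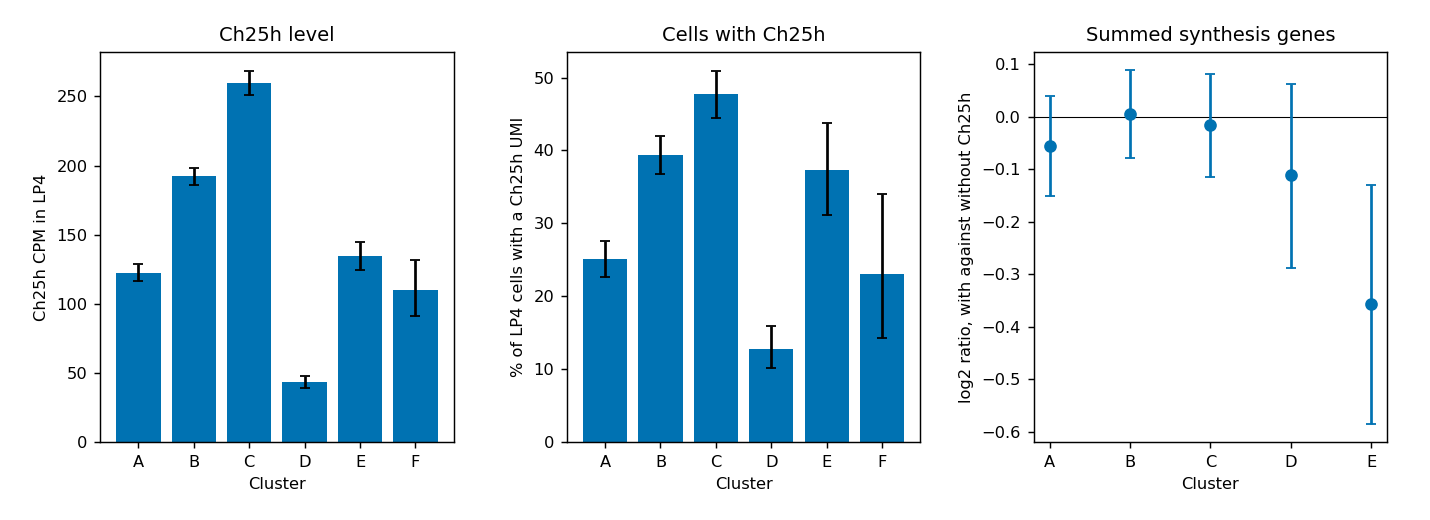
*Ch25h* in LP4 by cluster, as CPM (left) and as the percent of cells with a UMI at 5000 UMIs per cell (middle), and the log2 ratio of the summed synthesis genes between LP4 cells with and without a *Ch25h* UMI (right, clusters with at least 50 cells of each kind), with 95% counting intervals as bars. *Ch25h* is highest in C and lowest in D, and the synthesis ratio lies near 0 in A to C and at -0.36 in E.

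Of 35 other genes of sterol handling, 28 reached 10 CPM, and 6 (21.4%) were higher and 7 (25.0%) lower in LP4 than in Ctrl. These shares lay near the 20.0% and 23.1% of all genes. With TMM or median of ratios factors 9 were higher and 5 lower. Of all genes, 26.6% were higher and 16.0% lower with TMM, and 28.0% and 14.7% with median of ratios factors. The median log2 ratio of the 28 was -0.02, and 0.15 and 0.19 with these factors. *Rnf139*, a sterol-regulated ubiquitin ligase of the endoplasmic reticulum, had a log2 ratio of 1.56 (1.42 to 1.70) and *Stard5*, a sterol-binding protein, of 1.12 (0.99 to 1.25). On the lower side stood *Osbpl2*, an oxysterol-binding protein relative, at -1.71 (-1.89 to -1.53), and *Gramd1b*, which moves cholesterol from the plasma membrane to the endoplasmic reticulum, at -1.59 (-1.64 to -1.54). In LP1 none of the 28 was higher and 2 were lower, beside 4.23% and 2.83% of all genes.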

How the data were processed

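BMDMs of 3 conditions were profiled with 10x 3′ single-cell RNA-seq, 1 library per condition. The authors deposited raw UMI counts per gene and cell, made with Cell Ranger (7.1.0 in the submitters' processing notes, another release in the study's methods) against mm10. Whether intronic reads were counted is not given in the sources used here. The 34 members and the other gene lists were chosen with earlier results of these data known. Of 16281 barcodes, the limits the study states (over 500 UMIs, over 500 genes, under 5% mitochondrial UMIs) left 15806, more than the study states. No doublets were removed, and an alternative left out the 5% of cells with the highest doublet scores.

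Deposited counts were summed per library and divided by the library total to give CPM. Intervals (95%) are exact Poisson for CPM, exact conditional binomial for ratios and exact binomial (Clopper-Pearson) for shares, and cover counting error only. Ratios were called at 1.5-fold among genes with at least 10 CPM in 1 library. Members past 2-fold in any comparison were described in full, other members by their levels, and up to 4 genes were named from each other list. Cells were thinned to 2000 UMIs for shares and 5000 UMIs for the *Ch25h* split. Clusters were made with leidenalg 0.10.2 at resolution 0.5 from 30 principal components of 2000 genes, without the members and without genes differing by 1.5-fold between libraries. Each gene was centred within each library beforehand. Alternatives used TMM factors from edgeR 4.0.16 and median of ratios factors. Gene positions are from GENCODE vM21 and matched 34 of 34 members. Python 3.11.15, scipy 1.17.1 and R 4.3.3 were used. The intervals of ratios, the fold calls and the depth of thinned cells were tested on simulated counts, and the other steps were not.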

Additional observations from a re-analysis of the deposited data

How the results depend on the processing

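No paired analysis was possible because each condition is 1 library, and for the same reason no library could be left out. Clustering without centring the libraries, and with genes that differed by 1.5-fold between libraries let in, gave no cluster with enough cells in each library. Which of these changes led to this was not tested. Of the main results, 90 values under the alternatives stayed close to those reported, 25 moved and 2 reversed, and of the values of single genes 695 stayed close, 115 moved and 6 reversed. Most of the changes in single genes came with the scaling factors. Of 102 such values, 54 stayed close, 45 moved and 3 reversed with TMM factors. With median of ratios factors 44 stayed close, 55 moved and 3 reversed. All 102 stayed close where only the set of cells was changed. Synthesis genes kept a median log2 ratio above 0 in LP4 against Ctrl, at 0.80 with TMM, 0.83 with median of ratios factors and 0.23 with no minimum, and against LP1 at 0.11 with no minimum and 0.23 without the 5% of cells with the highest doublet scores. The median log2 ratio of the efflux and LXR genes in LP4 against Ctrl was -0.68 on the main scale, -0.51 with TMM and -0.47 with median of ratios factors. The main value was that of 4 genes, *Abca1*, *Abcg1*, *Nr1h2* and *Mylip*. The median log2 ratio of lysosomal, storage and transport genes in LP4 against Ctrl reversed to 0.0220 and 0.0594 with these factors, and was -0.17 without mitochondrial and ribosomal protein genes. With TMM and median of ratios factors the log2 ratio of Ebp in LP4 against Ctrl reversed to 0.0170 and 0.0544, the log2 ratio of Npc2 in LP4 against Ctrl to 0.0220 and 0.0594, and the log2 ratio of Lipa in LP1 against Ctrl to 0.00406 and 0.00833. At 2-fold in place of 1.5-fold, 4 members were higher and 1 lower in LP4 against Ctrl, 2 higher and 1 lower against LP1, and 0 lower in LP1. Of all 8103 genes, 851 were higher and 806 lower by 2-fold in LP4 against Ctrl, 696 and 628 against LP1, and 41 lower in LP1 against Ctrl. With TMM, 3 members were lower in LP4 against Ctrl, 1 against LP1 and 0 in LP1 against Ctrl, beside 16.0%, 14.6% and 1.85% of all genes. With median of ratios factors the counts were 1, 1 and 0, beside 14.7%, 13.5% and 1.80% of all genes. The share of cells with *Ch25h* followed depth, at 11.8% in LP4 with 1000 UMIs per cell, 30.4% with 4000 and 43.6% without thinning. In LP1 it was 0 with 1000 UMIs, which allows up to 0.0592%, and 0.316% without thinning. The synthesis ratio of cells with to cells without *Ch25h* was -0.0372 (-0.123 to 0.0476) with 2000 UMIs. With 1 library per condition the spread between cultures is unknown. The scaling and minimum of the lists outside the members, and the split of *Abca1* and *Abcg1* by *Ch25h* within clusters, were chosen after seeing the data.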
